A study of Drosophila melanogaster with 17 samples.

Results

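The units described here are single U nucleotides in the bodies of microRNA arms of *Drosophila melanogaster* S2 cells, an embryonic cell line that grows in culture. A member is a U of the reference at nucleotides 1 to 18 of an arm, counted from the 5′ end, with at least 1000 reads over it in the 24 h library of its group. There were 513 members in 88 arms of the unoxidised table and 379 in 67 arms of the oxidised table, of 792 and 544 U positions at nucleotides 1 to 18 of any depth. Of these, 352 were members in both groups, and 540 positions of 862 were members in at least 1. Several arms share the same body, so 1 copy of each was kept, which left 476 members in 81 unoxidised arms and 349 in 61 oxidised arms.

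All cells were of the same line, called wt in most sample titles and with no genetic change given in the labels. They were grown with 10% FBS at 25 °C. The 8 unoxidised libraries come from cells given 500 µM s4U for 0, 0.25, 0.5, 1, 3, 6, 12 or 24 h, with RNA treated with iodoacetamide (IAA). The 8 oxidised libraries are the same times, with a portion of the treated RNA also oxidised with NaIO4. A further library had neither s4U nor IAA. There was 1 library per time and group, so a rate at a given time has no replicate.

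The nucleoside s4U (4-thiouridine) is taken up by cells and built into new RNA in place of uridine. IAA alkylates its sulphur, and reverse transcriptase then tends to write C where the RNA holds the alkylated base, so a T>C mismatch marks a labelled U. Periodate oxidation spoils 3′ ends for ligation unless they carry a 2′-O-methyl group, which in flies Hen1 adds to small RNAs held by Ago2. Nucleotides 2 to 8 of a miRNA are its seed, the stretch that pairs with targets.

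The bodies (nucleotides 1 to 18) below carry the findings, with the U described in capitals, as read from the deposited hairpins. They belong to the miRNA genes at chr2L:16698554-16698650 (miR-79, + strand), chr3R:10091126-10091217 (miR-317, +), chr3R:29215585-29215684 (miR-279, +), chr3R:21622497-21622571 (miR-11, -), chr3R:10100022-10100121 (miR-277, +) and chr2L:16697924-16698015 (miR-9c, +) of dm6, these being hairpin coordinates. The first 3 are shown because their U led the unoxidised libraries within its arm, and the other 3 because their seed U led the oxidised libraries.
miR-79-3p: Uaaagcuagauuaccaaa
miR-317-5p: Ugggauacacccugugcu
miR-279-3p: ugacuagaUccacacuca
miR-11-3p: caUcacagucugaguucu
miR-277-3p: uaaaUgcacuaucuggua
miR-9c-5p: ucUuugguauucuagcug

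The next bodies hold a U that was cold, with less label than the other U of its arm: in both groups in miR-190-5p and miR-980-3p, oxidised in miR-276b-5p and miR-282-3p, and unoxidised in miR-304-5p. They are shown for their neighbours and their place in the arm. Their hairpins lie at chr3L:8571799-8571898 (miR-190, +), chrX:280172-280269 (miR-980, -), chr3L:10319785-10319883 (miR-276b, +), chr3L:3251022-3251118 (miR-282, +) and chrX:15508959-15509046 (miR-304, +). For miR-304-5p the capital marks nucleotide 4.
miR-190-5p: agauaugUuugauauucu
miR-980-3p: uagcugccuugUgaaggg
miR-276b-5p: agcgagguaUagaguucc
miR-282-3p: acauagccUauaagaggu
miR-304-5p: uaaUcucaauuuguaaau

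The libraries held 10321559 to 13199979 miRNA reads in the unoxidised group, 1386443 to 5610093 in the oxidised group and 16244632 without s4U and IAA. Within an arm every nucleotide from 1 to 18 had the same number of reads in a library (1215 of 1215 arm and library pairs unoxidised, 776 of 776 oxidised), so U of the same arm were compared at equal depth. Arms of miRNAs known from S2 cells (bantam, miR-14, miR-184, miR-8 and miR-2) were present, 17 in either table. Of the arms marking muscle (miR-1), neurons (miR-124) and differentiated tissue (let-7, miR-100, miR-125), 0 were in the unoxidised table and 1, with 121 reads at 24 h, in the oxidised table.

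The first question was how far each U became labelled. Almost every member gained T>C reads over 24 h in the unoxidised libraries. The median T>C rate over 476 members was 0.027%, 0.104%, 0.186%, 0.287%, 0.595%, 0.865%, 1.54% and 2.12% in the 8 libraries in order of time. In the oxidised libraries the median over 349 members was 0.0212%, 0.0229%, 0.0418%, 0.0741%, 0.21%, 0.341%, 0.577% and 1.12%. Each library's median was above that of the time before it in both groups, and the oxidised median was below the unoxidised one at each time. The other mismatches at the same U (T>A and T>G) had medians of 0.0298% (0 h) and 0.034% (24 h) unoxidised, and 0.00949% and 0.0109% oxidised. These are shares of reads in bulk RNA, where fewer labelled cells and less label per cell cannot be told apart.

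**Figure D1:**
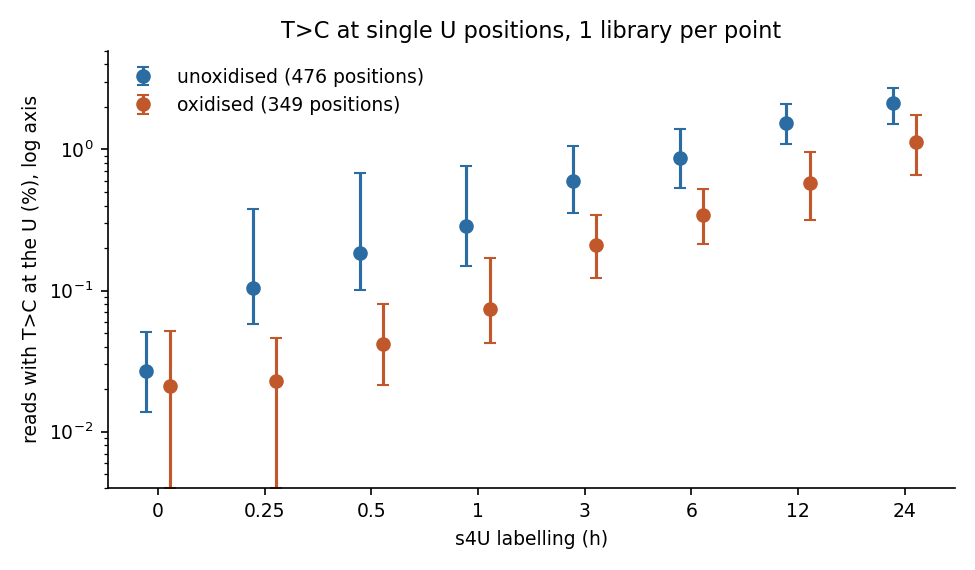
T>C rate at member U positions (percent of reads, log axis) against labelling time in hours, 1 library per point. Points are medians over 476 unoxidised and 349 oxidised positions, and bars run from the lower to the upper quartile, cut at the axis where the lower quartile is 0. The median rises from 0.027% to 2.12% unoxidised and from 0.0212% to 1.12% oxidised.

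By a one-sided Fisher's exact test of the reads against 0 h, adjusted by Benjamini-Hochberg over all U positions of the table, 474 of 476 unoxidised members had gained label at 24 h. The share over all U positions tested, at any nucleotide, was 98.4%. In the oxidised libraries 327 of 349 members passed, beside 88.5% of all U positions tested. At 0.25 h 329 unoxidised and 5 oxidised members passed, beside 402 of 611 and 8 of 426 among all U tested. At 3 h 449 and 202 members passed, beside 570 of 611 and 229 of 426. The oxidised libraries are shallower, and their part in this gap was not tested. The test covers counting error between single libraries.

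The 2 unoxidised members that did not pass were both in miR-13a-3p, a member of the miR-2 seed family. Its nucleotide 13 read C in 28.9% of reads before labelling, in 24.7% after 24 h and in 11.6% without s4U and IAA. At nucleotide 18 the rates were 2.04% and 2.89%, while 46.7% and 51.8% of reads there showed A or G. Its nucleotide 12 showed A or G in 29.0% of reads at 0 h, and nucleotide 1 in 6.39%. The reads assigned to this arm thus departed from the reference before any labelling. Its nucleotide 18 is where miR-13b-3p holds C, but C stood in only 2.04% of reads there at 0 h. The body of miR-2b-1-3p, printed below, has G, C and A at nucleotides 12, 13 and 18. Where the reads came from was not tested. Results below that rest on counts were also taken without miR-13a-3p.

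Of the 22 oxidised members that did not pass, 5 were all the member U of miR-4940-5p, at 0 T>C reads in every oxidised library. A count of 0 of 1715 reads at 24 h allows a rate of up to 0.175%. At its nucleotide 15 another base stood in 100% of reads at 0 h and 99.9% at 24 h, so these reads did not carry the reference sequence there. Most of the rest had few reads at 0 h. For instance, miR-965-3p nucleotide 9 had 325 reads at 0 h, 5 of them T>C (1.54%), and 2015 at 24 h with 13 T>C (0.645%).

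The highest rate that labelling produced was at nucleotide 3 of miR-308-3p, in its seed. From 0 to 24 h the T>C rate there was 0.173%, 0.558%, 0.837%, 1.27%, 3.35%, 4.73%, 13.2% and 18.4%. The last value is 15425 of 83878 reads, with an exact 95% interval of 18.1% to 18.7%, and no library was below the one before it. T>A and T>G together were 0.575% at 24 h. Next came nucleotide 3 of miR-8-5p at 6.14% (5.87% to 6.42%), nucleotide 17 of miR-277-3p at 5.02% and nucleotide 15 of miR-7-5p at 4.77%, all unoxidised at 24 h.

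The lowest unoxidised rates at 24 h were 0.317% at nucleotide 15 of miR-281-2-5p, 0.328% and 0.361% at nucleotides 16 and 13 of miR-986-5p, 0.403% at nucleotide 6 of miR-1007-3p and 0.521% at nucleotide 12 of miR-1008-3p. In the oxidised libraries the highest at 24 h were nucleotide 18 of miR-304-5p at 6.46% (91 of 1408 reads, 5.24% to 7.88%), nucleotide 3 of miR-8-5p at 6.45%, nucleotide 3 of miR-305-5p at 4.89%, nucleotide 5 of miR-8-5p at 4.66% and nucleotide 9 of miR-996-3p at 3.72%. Of these 5, 3 lie in the seeds of 2 arms, and the interval of miR-304-5p nucleotide 18 spans the value of miR-8-5p nucleotide 3.

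The mismatch background differed by nucleotide and between the unlabelled libraries, of which each group has 1 at 0 h. At 0 h in the unoxidised library, member U at nucleotide 3 had a median T>C rate of 0.142% and a median T>A plus T>G rate of 0.537%, against 0.00885% and 0.0108% at nucleotide 4. The T>A plus T>G rate at nucleotide 3 was 0.546% at 24 h, so it did not follow the label. Nucleotides 1, 12, 13, 15, 16 and 18 also stood at 0.0934% to 0.183% for T>A plus T>G at 0 h. In the oxidised library the raised nucleotides were 10 and 12, at 0.120% and 0.113%, and nucleotide 3 was at 0.0197%. Without s4U and IAA, nucleotides 3, 5, 10, 13, 15 and 18 stood at 0.116% to 0.332%, and nucleotides 1, 12 and 16 at 0.008% to 0.0118%. For this reason the 0 h rate of each U was subtracted from its later rates, which gives the label used from here on.

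The members start at 1000 reads in the 24 h library. The 3 arms just above 1000 reads at 24 h, unoxidised, were miR-79-5p (1042 reads), miR-12-3p (1146) and miR-7-3p (1177), whose median T>C rates were 2.40%, 2.62% and 3.48%. The 3 just below were miR-307a-3p (992 reads, 2.12%), miR-1012-5p (828 reads, 2.66%) and miR-4940-5p (821 reads, 0%). Oxidised, miR-980-5p (1034), miR-970-3p (1063) and miR-995-5p (1109) stood at 1.64%, 1.55% and 1.89%, and miR-277-5p (834), miR-279-5p (811) and miR-1003-3p (660) at 1.02%, 1.36% and 0.833%.

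The next question was whether the U of 1 arm share a common rate. U of the same arm often differed more than 2-fold. At 24 h the ratio of the highest to the lowest label within an arm had a median of 2.34 over 74 unoxidised arms, from 1.18 (miR-275-3p) to 10.3 (miR-308-3p), and passed 2 in 48 of them. Over 51 oxidised arms the median ratio was 4.22, from 1.29 (miR-275-3p again) to 30.3 (miR-304-5p), and passed 2 in 48. The lowest label of miR-304-5p rests on 3 of 1408 reads. The oxidised libraries are shallower, and how far counting error widened their ratios was not tested. Between arms, the median label of an arm ran from 0.858% to 3.41% unoxidised and from 0.478% to 2.98% oxidised.

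A U was called hot or cold where its T>C reads were at least 2-fold above or below the number expected from its 0 h rate and the median label of the other U of its arm. The 3, 6, 12 and 24 h libraries served as repeats, in edgeR's quasi-likelihood test with adjusted p under 0.05, in arms with at least 4 member U. Its folds are of reads with background included, and are given as fitted folds. Relative label, by contrast, is the label of a U divided by the median label of the others in a single library, on the log2 scale. Unoxidised, 13 of 461 tested members were hot and 21 cold, beside 2.73% hot and 5.8% cold among all U tested at any nucleotide. Oxidised, 34 of 313 were hot and 35 cold, beside 9.19% and 20.5%. With the pooled label of the other U as the reference, in place of their median, the balance moved towards cold, at 7 hot and 26 cold unoxidised and 23 hot and 50 cold oxidised. Members past the test at any fold numbered 156 above and 150 below unoxidised (31.4% and 33.6% of all U tested), and 95 above and 89 below oxidised (26% and 36.2%). In simulated data the share of false calls at any fold was 7.02% to 16.4% unoxidised and 9.40% to 11.7% oxidised, and at least 2-fold it was 0% and 2.78% to 2.94%.

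The hottest unoxidised U was again miR-308-3p nucleotide 3, with labels of 3.17%, 4.56% and 18.2% at 3, 6 and 24 h against 0.467%, 0.737% and 2.47% for the median of the other U of the arm. Its fitted log2 fold was 2.59 ± 0.06 (SE, edgeR adjusted p = 2.28e-07). It was not a member in the oxidised table. In miR-2279-5p the first pair of nucleotides were both hot, and its nucleotide 14 was cold, in both groups. Nucleotide 2 had labels of 0.594%, 1.35%, 2.97% and 3.22% unoxidised and a fitted log2 fold of 1.69 ± 0.14 (edgeR adjusted p = 5.57e-05). Nucleotide 14 had 0.0369%, 0.0578%, 0.394% and 0.475%, with a fitted log2 fold of -1.53 ± 0.28 (edgeR adjusted p = 0.00243). Nucleotide 2 was above nucleotide 14 in each of the 4 libraries.

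The 5′ terminal U was hot in 3 and cold in 3 of 41 arms unoxidised, and hot in 4 and cold in 3 of 25 oxidised. In miR-79-3p, printed above, nucleotide 1 had T>C rates of 0.45%, 0.951%, 1.88% and 3.23% at 3 to 24 h, and a fitted fold of 2.68. In miR-317-5p nucleotide 1 had 3.48%, 3.52%, 3.25% and 3.75%, and was already at 3.21% at 0.5 h, with a fitted fold of 2.36. Both were hot in the oxidised libraries as well, at fitted folds of 3.29 and 2.67. For miR-317-5p the oxidised relative label was 3.03, 2.14 and 1.56 at 3, 12 and 24 h but -0.56 at 6 h, where the T>C rate was 0.205%. The remaining hottest U were nucleotide 8 of miR-986-5p (2.49-fold), nucleotide 3 of miR-2535b-5p (2.37), nucleotide 9 of miR-279-3p (2.15), nucleotide 3 of miR-8-5p (2.12) and nucleotide 10 of miR-13b-2-5p (2.09).

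Among cold U, nucleotide 8 of miR-190-5p was the plainest case common to both groups. Its T>C rates at 3, 6, 12 and 24 h were 0.533%, 0.65%, 1.2% and 1.18% unoxidised, where the other U of the arm had a median label of 1.28%, 1.81%, 2.56% and 2.82%. The oxidised rates were 0.041%, 0.0418%, 0.054% and 0.238%, with a 0 h value of 0.016%, and its label was under the 3-read limit in 3 of the 4 libraries. The fitted log2 fold was -1.26 ± 0.10 unoxidised (edgeR adjusted p = 5.57e-05) and -2.35 ± 0.43 oxidised (edgeR adjusted p = 0.000105). A further shared cold U, miR-980-3p nucleotide 12, lies between 2 G and had fitted folds of 0.403 and 0.253; oxidised, its call was lost with limma (adjusted p = 0.122) and when the 1 h library was added (edgeR adjusted p = 0.17).

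The coldest unoxidised U by the fit was miR-1007-3p nucleotide 6, at 0%, 0.0985%, 0.0692% and 0.403%, with a fitted log2 fold of -2.54 ± 0.45 (edgeR adjusted p = 0.00202). Its label was below the 3-read limit in 3 of the 4 libraries, and limma gave an adjusted p of 0.0681. Nucleotides 16 and 13 of miR-986-5p (fitted folds 0.305 and 0.373), nucleotide 5 of miR-278-3p (0.377), nucleotide 4 of miR-304-5p (0.413), nucleotide 12 of miR-1008-3p (0.442) and nucleotide 7 of miR-965-3p (0.449) made up the rest of the 10.

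In the 5 most abundant arms none of the U tested was hot or cold. The ratio of the highest to the lowest label at 24 h was 1.37 in bantam-3p, 1.76 in miR-2b-1-3p, 1.96 in miR-14-3p and 2.5 in miR-8-3p unoxidised, the last above the median of all arms, and 2.03 to 2.58 oxidised. The body of bantam-3p, a growth and survival miRNA of flies, holds 6 U, all in capitals here, and that of miR-2b-1-3p, shared by 5 arms of the miR-2 family, holds 5. Their hairpins lie at chr3L:642208-642288 (+) and chr2L:8258616-8258692 (-).
bantam-3p: UgagaUcaUUUUgaaagc
miR-2b-1-3p: UaUcacagccagcUUUga
At 24 h the T>C rates of bantam-3p at nucleotides 1, 6, 9, 10, 11 and 12 were 1.47%, 1.97%, 1.95%, 1.83%, 1.7% and 1.52% unoxidised and 1.08%, 2.17%, 1.56%, 1.56%, 1.39% and 1.18% oxidised. In both groups nucleotide 6 was highest and nucleotide 1 lowest, and along the run of 4 U from nucleotide 9 to 12 no rate was above the one before it. For miR-2b-1-3p the rates at nucleotides 1, 3, 14, 15 and 16 were 2.61%, 2.42%, 2.12%, 1.99% and 1.54% unoxidised and 1.34%, 2.66%, 2.91%, 2.12% and 1.47% oxidised. At 24 h its terminal U was the highest unoxidised and the lowest oxidised. This order of rates did not hold throughout: nucleotide 3 was higher unoxidised at 3 and 12 h, and nucleotide 16 was lower oxidised at 3, 6 and 12 h. These rates include the 0 h background, 0.123% at nucleotide 3 against 0.0343% at nucleotide 1 unoxidised. With it subtracted, nucleotide 1 was above nucleotide 3 at 3 and 12 h as well. Oxidised, nucleotide 16 then stayed below nucleotide 1 at 3 and 12 h but not at 6 h.

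The other abundant arms were miR-14-3p, miR-184-3p and miR-8-3p. Over the 10 member U of miR-14-3p the 24 h rates ran from 1.4% (nucleotide 9) to 2.76% (nucleotide 13) unoxidised and from 1.2% (nucleotide 17) to 2.59% (nucleotide 13) oxidised. Oxidised nucleotide 13 was already at 0.575% at 0 h. With the 0 h rate subtracted, nucleotide 8 had the highest oxidised label, 2.25%, and the fitted fold of nucleotide 13 was 0.905. The 3 member U of miR-184-3p, at nucleotides 1, 13 and 16, had 3.54%, 2.85% and 3.41% unoxidised and 1.82%, 1.73% and 2.28% oxidised; with 3 U the arm was not tested. In miR-8-3p nucleotide 4 was highest and nucleotide 9 lowest in both groups, at 3.09% and 1.25% unoxidised and 1.84% and 0.706% oxidised.

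By place in the arm, the relative label differed little in the unoxidised libraries and more in the oxidised ones. The median relative label (log2) of unoxidised members at 24 h was 0.17 at nucleotide 1, 0.07 at nucleotides 2 to 8, 0.01 at 9 to 12 and -0.12 at 13 to 18. In the oxidised 24 h library those medians were -0.03, 0.40, -0.12 and -0.07. The rise lay at the start of the seed: at nucleotides 2, 3, 4 and 5 the oxidised medians were 0.97 (8 positions), 1.27 (13), 0.80 (15) and 0.75 (14), and at nucleotides 6, 7 and 8 they were -0.08, -0.05 and -0.17.

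**Figure D2:**
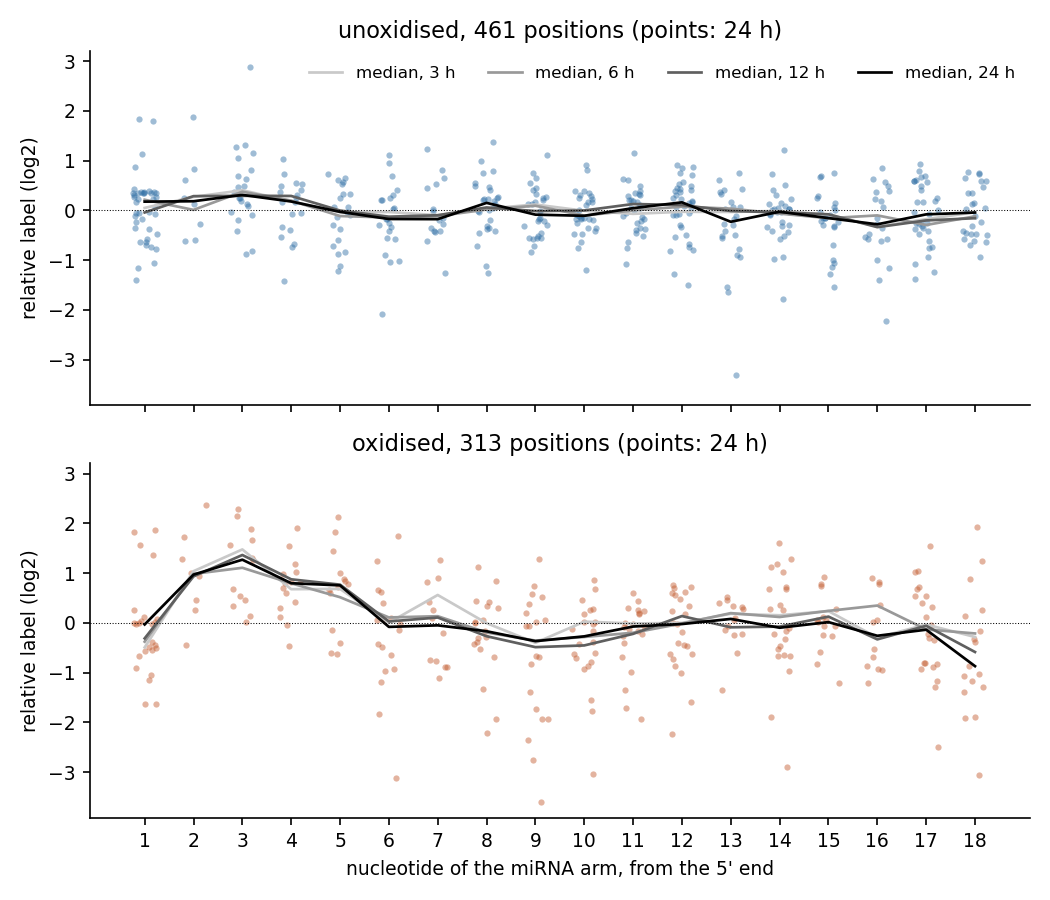
Relative label (log2 of the label of a U over the median label of the other U of its arm) against the nucleotide of the arm, for 461 unoxidised and 313 oxidised positions. Points are single positions at 24 h, and lines are medians per nucleotide in the 3, 6, 12 and 24 h libraries. The oxidised lines stand highest at nucleotides 2 to 5 in all 4 libraries, and the unoxidised lines stay near 0.

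Nucleotides 2 to 5 were set against 6 to 18 after the values had been seen. In the oxidised libraries their median relative label was 0.91, 0.90, 0.85 and 0.80 at 3, 6, 12 and 24 h, against 0, -0.04, -0.12 and -0.11 at nucleotides 6 to 18. Unoxidised, it was 0.20, 0.14, 0.20 and 0.18 against -0.01, -0.05, -0.03 and -0.03. The order was the same in all 8 libraries. Arm by arm at 24 h, the median label of nucleotides 2 to 5 exceeded that of 6 to 18 in 32 of 35 oxidised arms, with a median ratio of 1.73, and in 32 of 51 unoxidised arms, with a median ratio of 1.19. The oxidised counts at 3, 6 and 12 h were 30, 26 and 27 of 35 arms.

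The calls followed the same division. Of 50 oxidised members at nucleotides 2 to 5, 18 were hot and 0 cold, against 12 hot and 32 cold of 238 at nucleotides 6 to 18. At any fold, 34 of the 50 were above the rest of their arm and 3 below. Unoxidised, 5 of 70 were hot and 3 cold at nucleotides 2 to 5, against 5 and 15 of 350 at 6 to 18. The oxidised rise was found in both strands of the duplex, with a median of 0.72 over 35 positions of mature arms and 0.87 over 15 positions of star arms at 24 h. Oxidised T>A plus T>G rates at nucleotides 2 to 5 had medians between 0.00548% and 0.0145% at 24 h, and 0.0336% at nucleotide 7.

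The positions that led the oxidised libraries were in the seed for 8 of the first 10, all 8 at nucleotides 2, 3 or 5. Among all tested oxidised members, 99 of 313 lay in the seed. In miR-8-5p, the arm opposite the abundant miR-8-3p, nucleotide 3 had T>C rates of 1.24%, 2%, 3.97% and 6.45% at 3, 6, 12 and 24 h and nucleotide 5 had 0.866%, 1.5%, 2.69% and 4.66%, while nucleotide 18 had 0.261%, 0.378%, 0.618% and 1.29%. The fitted log2 folds were 2.34 ± 0.07 for nucleotide 3 (edgeR adjusted p = 1.37e-15), 1.83 ± 0.07 for nucleotide 5 (8.23e-14) and -1.93 ± 0.13 for nucleotide 18 (2.17e-10). This arm has 4 U, so each was set against the median of 3, and high and low U define each other.

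In miR-11-3p, which sits in an intron of E2f1, nucleotide 3 had 0.377%, 0.665%, 1.5% and 2.77%, against a median label of 0.0601%, 0.151%, 0.206% and 0.617% at the other U. Its fitted log2 fold was 2.05 ± 0.09 (edgeR adjusted p = 6.22e-13). The others of the 10 were nucleotide 2 of miR-2279-5p (3.8-fold) and of miR-2a-1-5p (3.1), nucleotide 3 of miR-184-5p (3.48) and miR-9c-5p (3.07), nucleotide 5 of miR-277-3p (3.32), nucleotide 1 of miR-79-3p (3.29) and nucleotide 18 of miR-304-5p (3.15). Among these were guides such as miR-277-3p and miR-11-3p and passenger strands such as miR-184-5p.

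**Figure D3:**
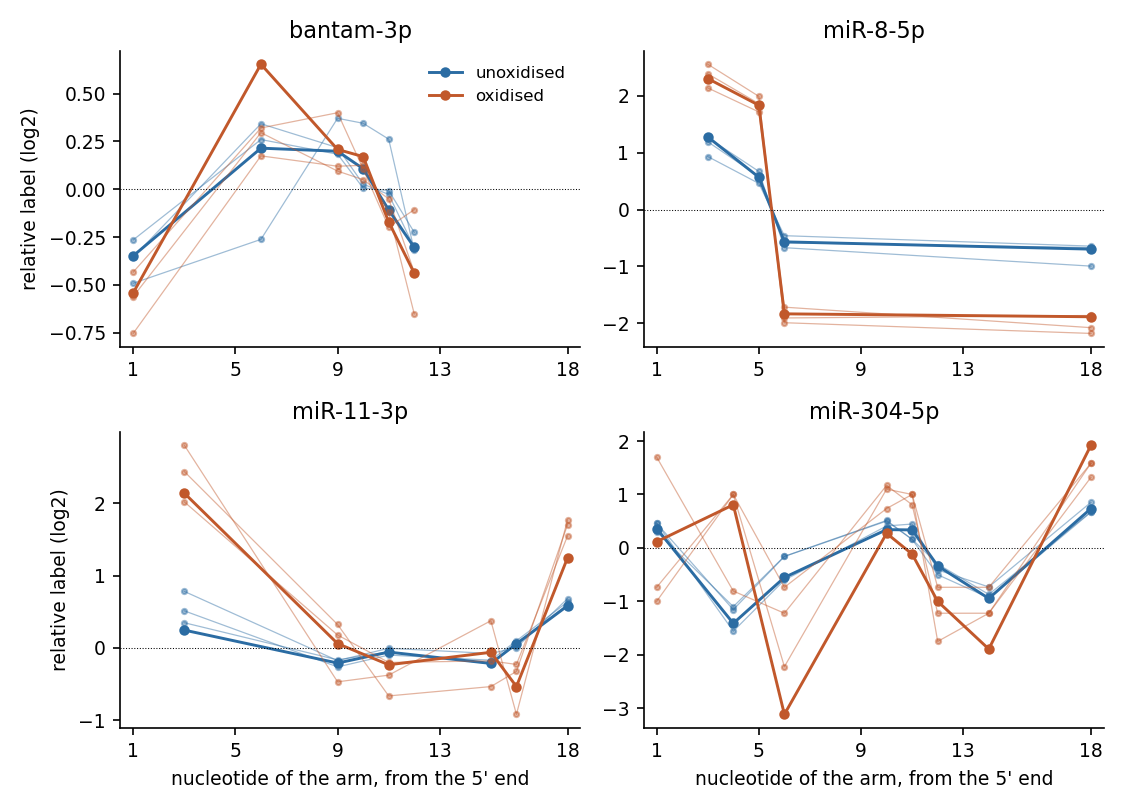
Relative label (log2) at each member U against its nucleotide in 4 arms, unoxidised in blue and oxidised in orange. Heavy lines are 24 h and thin lines 3, 6 and 12 h, 1 library each. The seed U of miR-8-5p (nucleotides 3 and 5) and miR-11-3p (nucleotide 3) stand higher in the oxidised libraries, and bantam-3p has no U at nucleotides 2 to 5.

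Cold U of the oxidised libraries lay around nucleotides 8 to 10 in 6 of the 10 lowest. In miR-276b-5p, whose body is shared with miR-276a-5p, nucleotide 10 had 0.0529%, 0.0781%, 0.134% and 0.177% at 3, 6, 12 and 24 h, with a 0 h rate of 0.0603%, against 0.832%, 1.32%, 1.53% and 1.65% unoxidised. Nucleotide 9 of miR-282-3p had 0.0593%, 0.0591%, 0.0939% and 0.228%, against 0.699%, 0.868%, 1.54% and 1.99%. Fitted oxidised log2 folds were -2.24 ± 0.17 and -2.18 ± 0.16 (edgeR adjusted p = 1.11e-09 for both). Nucleotide 9 as a whole held 7 cold of 20 tested members, with a median relative label of -0.37 at 24 h, and nucleotide 18 held 6 of 17, with a median of -0.87. Nucleotides 8 and 10 held 3 of 19 and 3 of 22, beside 35 of 313 over all tested oxidised members.

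Several of the lowest rest on thin data. For miR-304-5p nucleotide 6 (fitted log2 -3.04 ± 0.57, edgeR adjusted p = 0.000145) the 24 h value was 3 of 1408 reads. For miR-965-3p nucleotide 9 (fitted fold 0.158) and miR-282-5p nucleotide 8 (0.255) the 0 h rates of 1.54% and 0.855% came from 325 and 585 reads. In miR-282-5p only nucleotides 8 and 11 met the limits set on the reference, and both were cold (0.255 and 0.286). Their 24 h labels were below 0, at -0.684% and -0.6%, and the limits favoured such U, as described under processing. Without subtraction of the 0 h rate the call for miR-282-5p nucleotide 8 was lost (edgeR adjusted p = 0.171), and with limma its direction turned (0.000396 on the log2 scale, adjusted p = 0.999). Nucleotide 9 of miR-263a-5p (fold 0.169) lost its call with limma (adjusted p = 0.0875).

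The base before the U ordered the label in both groups. Unoxidised at 24 h, the median relative label was 0.29 after A (91 positions), 0.08 after C (95), 0.02 after U (136) and -0.47 after G (98). At 3, 6 and 12 h it was 0.30, 0.29 and 0.34 after A and -0.41, -0.48 and -0.37 after G, so A stood above G in each library. After G, 13 of 98 members were cold and 1 hot; after A, 2 of 91 were cold and 6 hot. At any fold, 64 of the 98 after G were below the rest of their arm, and 53 of the 91 after A were above.

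Oxidised at 24 h, the medians were 0.55 after A (64), 0.02 after C (62), -0.12 after U (86) and -0.08 after G (76). There, A stood above the other 3 in each of the 4 libraries. At nucleotides 6 to 18 alone, the oxidised medians were 0.30 after A and -0.31 after G, and the unoxidised ones 0.27 and -0.46. Where 1 arm held both kinds, the U after A had more label than the U after G in 33 of 36 unoxidised arms at 24 h, with a median ratio of 1.90, and in 21 of 30 oxidised arms, with a median ratio of 1.58.

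**Figure D4:**
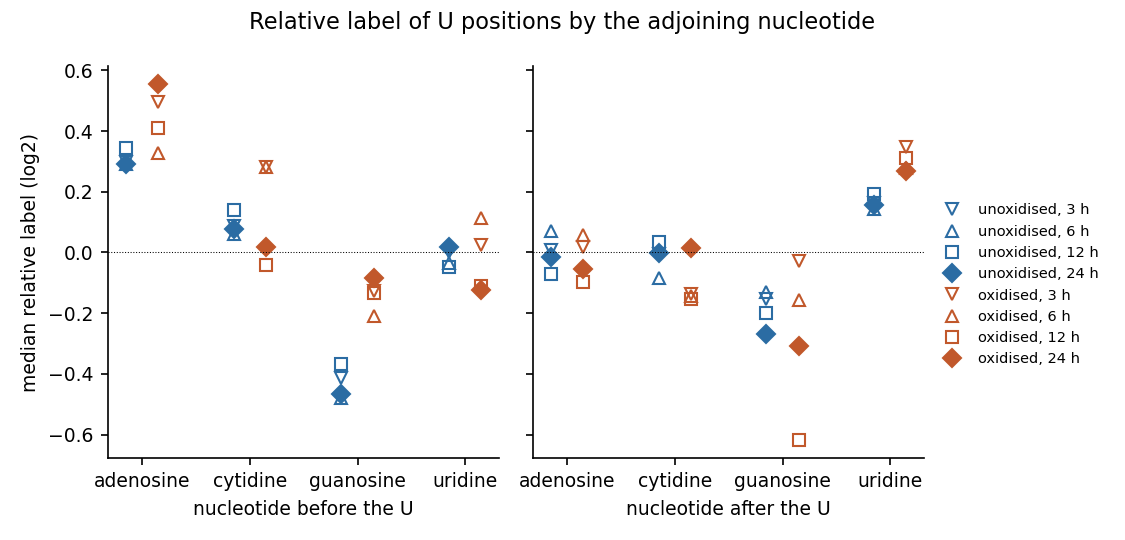
Median relative label (log2) of member U positions by the nucleotide before (left) and after (right) the U, in the 3, 6, 12 and 24 h libraries, unoxidised in blue and oxidised in orange. Filled diamonds are 24 h. Unoxidised U after guanosine stand between -0.48 and -0.37, and those after adenosine between 0.29 and 0.34.

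The base after the U ordered the label in the same sense for G. Unoxidised at 24 h, the median was 0.15 before U (144), -0.0022 before C (98), -0.01 before A (98) and -0.27 before G (121). Oxidised, it was 0.27 before U (92), 0.02 before C (59), -0.05 before A (68) and -0.31 before G (94). U stood above G in all 8 libraries; oxidised, the medians before G were -0.03, -0.16 and -0.62 in the 3, 6 and 12 h libraries. In arms with both kinds, the U before U was higher than the U before G in 40 of 51 unoxidised and 29 of 36 oxidised arms at 24 h.

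By both neighbours, the U between 2 G had the lowest median of the pairings with at least 15 positions. Its fitted log2 median was -0.57 over 40 unoxidised positions, of which 7 were cold and 0 hot, and -0.49 over 31 oxidised positions, of which 8 were cold and 0 hot. U between A and U had 0.33 over 40 unoxidised positions and 0.58 over 26 oxidised ones. Smaller pairings departed from this order. Unoxidised, U between A and G had the highest median of all pairings, 0.57 over 13 positions, so G after the U did not go with low label there. Oxidised, that pairing had 0.19 over 11 positions, and U between G and C had the lowest median, -0.56 over 7. Single members went the other way: miR-304-5p nucleotide 4, between A and C, was cold unoxidised, and miR-308-3p nucleotide 3 and miR-8-5p nucleotide 3, the hottest of each group, stand between the same 2 bases.

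The relative label of U within arms was partly shared by the groups. Over 299 positions of 51 arms tested in both, the fitted log2 values had a Spearman correlation of 0.63 and a Pearson correlation of 0.64. The points of an arm share a reference, and libraries of the same time come from the same RNA, so these values are a description. Without nucleotides 2 to 5 the Spearman correlation was 0.64 over 250 positions. Within a group, the 12 h library against the 24 h library gave 0.86 over 461 unoxidised and 0.85 over 313 oxidised positions.

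No position was hot in 1 group and cold in the other among the 299, though few would be by chance alone. Of the 8 hot unoxidised, 7 were hot oxidised, and of the 11 cold unoxidised, 6 were cold oxidised. In the other direction, 27 of the 34 hot and 28 of the 34 cold oxidised positions were neither unoxidised. At any fold, 61 were above and 57 below in both groups, while 10 were above unoxidised and below oxidised, and 8 the reverse.

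**Figure D5:**
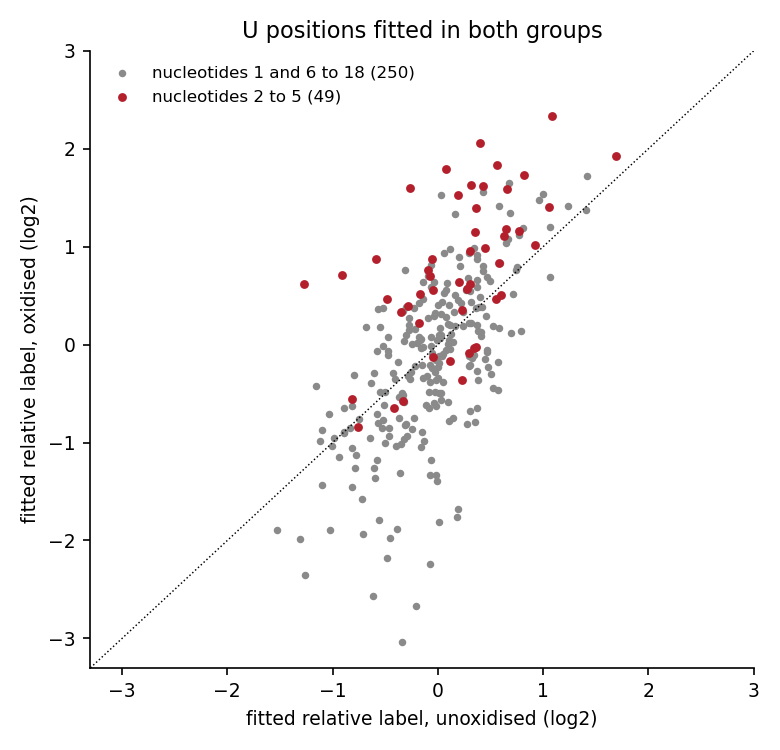
Fitted log2 relative label of 299 U positions tested in both groups, oxidised against unoxidised, with the line of equal values dotted. Of the 49 positions at nucleotides 2 to 5 (red), most lie above the line; the oxidised values reach from about -3 to above 2.

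The last comparison was the change in relative label on oxidation, tested in edgeR with time as a block. Of 298 members, 73 had higher and 57 lower relative label after oxidation (adjusted p under 0.05), beside 20.9% higher and 27.5% lower among all 364 U tested; in simulated data 6.11% to 14.9% of such calls were false, and 0% to 4.05% of those of at least 2-fold. At nucleotides 2 to 5, 30 of 49 had gained and 2 had lost relative label, the median log2 difference being 0.55; at nucleotides 6 to 18 the counts were 41 and 49 of 224, and the median -0.04. At 2-fold and more, 12 of the 49 were higher and 0 lower, against 3 and 19 of 224. The oxidised libraries were the shallower in each pair, and that part was not tested; with at least 5000 reads required, the oxidised excess of nucleotides 2 to 5 over 6 to 18 at 24 h was 1.03, against 0.91.

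The largest increases were in seeds. Nucleotide 3 of miR-305-5p had label at 3, 6, 12 and 24 h of 0.575%, 1.02%, 1.78% and 2.71% unoxidised against a reference of 0.682%, 1.34%, 2.29% and 3.09%, and of 1.13%, 2.04%, 2.5% and 4.86% oxidised against 0.319%, 0.588%, 0.971% and 1.63%. It went from below the rest of its arm to above it, a log2 difference of 1.86 ± 0.10 (edgeR adjusted p = 9.4e-11). Nucleotide 5 of the same arm followed, at 1.62 ± 0.10 (2.2e-10), as did nucleotide 3 of miR-184-5p at 1.71 ± 0.10 (2.2e-10) and of miR-11-3p at 1.64 ± 0.14 (3.2e-08).

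For miR-304-5p nucleotide 4 the difference was 1.94 ± 0.30 (edgeR adjusted p = 4.6e-05), from relative labels between -1.56 and -1.10 unoxidised to 1.00, -0.81, 1.00 and 0.81 oxidised, with 468 oxidised reads at 0 h and 1408 at 24 h. Its groups did not overlap, although the oxidised 6 h value was negative. Its nucleotide 6 had the largest decrease, -2.73 ± 0.46 (edgeR adjusted p = 0.0001), on the thin oxidised counts given above. The same arm thus held the largest change each way.

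Of 298 members tested, 21 had decreases of at least 2-fold. These were 9 of 82 at nucleotides 9 to 12, 6 of 94 at 2 to 8, 4 of 97 at 13 to 18 and 2 of 25 at nucleotide 1. The other 4 of the 5 largest lay at nucleotides 9 and 10. In miR-184-5p, nucleotide 9 had T>C rates of 0.919%, 1.1%, 2.05% and 2.34% unoxidised and 0.0407%, 0.0934%, 0.159% and 0.305% oxidised, while nucleotide 3 had 0.842%, 1.24%, 2.1% and 2.71% unoxidised and 0.403%, 0.738%, 1.47% and 3.18% oxidised. At 24 h the pair were near each other in the unoxidised library and far apart in the oxidised one. The log2 difference for nucleotide 9 was -1.93 ± 0.18 (edgeR adjusted p = 6.8e-08). Nucleotide 10 of miR-276b-5p had -2.16 ± 0.19 (3.2e-08), nucleotide 9 of miR-263a-5p -2.15 ± 0.60 (0.0064) and nucleotide 9 of miR-965-3p -2.48 ± 0.28 (9.5e-07). For miR-263a-5p the call was lost with DESeq2 (adjusted p = 0.0761), with limma (0.481) and without the 24 h libraries (0.214), and for miR-965-3p without subtraction of the 0 h rate (0.0757).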

How the data were processed

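The deposited mismatch tables hold counts of reads that show each base at each nucleotide of a miRNA arm, and the deposited library tables hold counts of miRNA reads. The tools that the submitters' processing notes name are cutadapt 1.7.1, Bowtie 1.2.2 and Picard, and the build is dm6; what each did is not given in the sources used here. Per the labels' protocols, RNA of 18 to 30 nt was selected and adapters carried 4 random nucleotides; whether reads were collapsed by them is not given. No deposited column of a per-sample value belonged to another series (0 such columns).

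The members and all lists were chosen with earlier results of these data known. Rates are T>C reads over all reads at the U. Intervals are exact 95% binomial, the limit for a count of 0 is 3 reads, and both cover counting error only. Of arms with the same body, the copy with most unoxidised reads at 24 h was kept. Label is the rate minus the 0 h rate. Fits used edgeR 4.0.16 (limma 3.58.1 and DESeq2 1.42.0 as alternatives, R 4.3.3) with the log of expected reads as offset, Benjamini-Hochberg adjustment over all U at any nucleotide, and arms with at least 4 member U. After values had been seen, a U was also required to have a reference above 0 in every library and at least 3 expected reads on average, which left out 27 oxidised members. A U is left out of its own reference, so in an arm with little label this rule favours keeping the U with the lowest label. Oxidised miR-282-5p kept only 2 U, both cold, and their calls are no evidence apart from the rule. The 3 to 24 h libraries are times, not repeat cultures, so p-values measure spread between times; errors of the 0 h rate and of the reference are not carried into them. Library pairs of the same time share their RNA per the labels' protocols, so time was the block; the deviations of such pairs had correlations of -0.11 to 0.07. In data simulated from these libraries, false calls were 0 to 2.94% of within-arm calls of at least 2-fold and 7.02 to 16.4% of those at any fold. For oxidation they were 0 to 4.05% and 6.11 to 14.9%. Each simulation changed 100 positions by 2-fold or 4-fold and gave the others the median label of their arm. A call was false where the true value was near 0 or of the other sign. The real libraries gave more calls at any fold than the simulated ones, so these shares may not carry over. Medians by nucleotide or neighbour are descriptions without a test. Named positions were the 10 hottest and 10 coldest per group, the 5 highest and 5 lowest 24 h rates, the 5 highest 0 h rates, every member U of the 5 most abundant arms, and the 5 largest oxidation differences each way. Fisher tests and summaries used scipy. Alternatives were read minimums of 300 and 5000, all copies, T and C reads only, other references, libraries and tools.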

Additional observations from a re-analysis of the deposited data

Results flagged for a closer look

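Among the 10 hottest and 10 coldest U of each group, the 4 late libraries held a value apart from the rest in 2 cases. Chance alone flags about 1 such set of 4 values in 20, so 2 cases are about what chance gives. The relative label of miR-79-3p nucleotide 1, unoxidised, was 1.81 at 24 h against 1.34, 1.41 and 1.38 at 3, 6 and 12 h. For miR-278-3p nucleotide 5, unoxidised, it was -2.61 at 12 h against -0.99, -1.02 and -1.12, and its label was under the 3-read limit in 3 of the 4 libraries.

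The remaining values are log2 differences in relative label between oxidised and unoxidised libraries, past the edgeR test. They were -2.73 for miR-304-5p nucleotide 6, -2.48 for miR-965-3p nucleotide 9, -2.16 for miR-276b-5p nucleotide 10, -2.15 for miR-263a-5p nucleotide 9 and -1.93 for miR-184-5p nucleotide 9. Upward, they were 1.94 for miR-304-5p nucleotide 4, 1.86 for miR-305-5p nucleotide 3, 1.71 for miR-184-5p nucleotide 3, 1.64 for miR-11-3p nucleotide 3 and 1.62 for miR-305-5p nucleotide 5.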

How the results depend on the processing

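The counts by oxidation kept to within 1.5 times under every alternative run. Without the pairing of libraries by time (no replicate block) 77 members were higher and 60 lower, against 73 and 57 with it. A minimum of 5000 reads gave 13 cold unoxidised, 20 hot and 17 cold oxidised and 197 with label gained oxidised, with fewer positions tested. The pooled reference gave 7 hot and 26 cold unoxidised against 13 and 21, 23 hot and 50 cold oxidised against 34 and 35, and 61 higher and 70 lower after oxidation; the cause was not tested. Leaving out each late library in turn gave 12 to 15 hot and 18 to 20 cold unoxidised, 32 to 37 hot and 28 to 37 cold oxidised, and 55 to 65 higher and 44 to 55 lower after oxidation.

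The differences between class medians kept their sign throughout. For nucleotides 2 to 8 minus 13 to 18, unoxidised, 0.19 became 0.057 at 3 h, 0.10 with 5000 reads, 0.11 with the pooled reference and 0.11 without nucleotide 3; oxidised, 0.47 became 0.40 at 6 h, 0.36 at 12 h, 0.39 with 5000 reads, 0.62 pooled, 0.40 without nucleotide 3 and 0.54 with no subtraction. For 2 to 5 minus 6 to 18, unoxidised, 0.21 became 0.19 at 6 h, 0.24 at 12 h, 0.24 pooled and 0.14 without nucleotide 3; oxidised, 0.91 became 0.95 at 6 h, 0.97 at 12 h, 1.03 with 5000 reads, 0.79 with all copies, 0.87 without nucleotide 3 and 0.98 with at least 1000 reads at 0 h. For A minus G before the U, unoxidised, 0.76 became 0.71 at 3 h, 0.71 at 12 h, 0.72 with 300 reads, 0.63 with 5000, 0.72 with all copies, 0.70 pooled and 0.72 without nucleotide 3; oxidised, 0.64 became 0.54 at 6 h, 0.54 at 12 h, 0.53 with 5000 reads, 0.55 with all copies, 1.06 pooled and 0.72 with no subtraction. For U minus G after the U, unoxidised, 0.42 became 0.32 at 3 h, 0.28 at 6 h, 0.31 with 5000 reads and 0.34 pooled; oxidised, 0.58 became 0.93 at 12 h. The cause of these moves was not tested.

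Of 776 values of named hot, cold and oxidation-dependent U under alternatives, 766 kept their direction and their side of the threshold; the 10 others belong to miR-1007-3p, miR-263a-5p, miR-980-3p, miR-282-5p and miR-965-3p, and the reversed one (miR-282-5p nucleotide 8, oxidised, limma) was 0.000396. The alternatives without nucleotide 3 or miR-13a-3p, with no 0 h subtraction in the fits, or with at least 1000 reads at 0 h were chosen after seeing the data, as was nucleotides 2 to 5. Depth limits the oxidised libraries most, where 3 reads at 1408 already amount to 0.213%.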
